A study of Bos taurus with 23 samples.

Results

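ACADM, HACL1, SUCLG2 and FUNDC2 encode proteins of the mitochondria or the peroxisomes, and their expression was followed here in the endometrium of 23 lactating Holstein cows. The 4 genes are members of the biomarker list of the study, which was chosen for its relation to later pregnancy in part of these cows and in cattle of other breeds, and they were taken from that list for their place in energy metabolism. The list holds both genes that were higher and genes that were lower in pregnant animals, and the 4 were not taken for 1 direction. Their difference between pregnant and non-pregnant cows is therefore given as a description, without a test. All 4 were found by their Ensembl identifiers (ACADM ENSBTAG00000024240, HACL1 ENSBTAG00000003718, SUCLG2 ENSBTAG00000009541, FUNDC2 ENSBTAG00000016977) among the 24616 genes counted, and all 4 passed the filter on low counts, which left 14852 genes for testing.

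Each library came from 1 cow and 1 uterine biopsy, taken in early dioestrus of a cycle without an embryo. In the next cycle every cow received an embryo produced in vitro, and after slaughter 12 cows were found pregnant and 11 non-pregnant. Of the pregnant cows 7 were of parity 1, 2 of parity 2 and 3 of parity 3, and of the non-pregnant cows 5, 3 and 3. The interval from calving to transfer ran from 128 to 274 days, with a median of 173.5 days in pregnant and 180 days in non-pregnant cows. The biopsy holds epithelium, stroma, vessels and immune cells together, so fewer cells of a type and less RNA per cell cannot be told apart. The cell type markers and the other genes of these pathways were not checked, because neither the count files nor the gene table used here pairs their symbols with Ensembl identifiers.

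The enzymes take part in separate steps of the breakdown of fatty acids and of the use of the products. Medium-chain acyl-CoA dehydrogenase, the product of ACADM, carries out the first dehydrogenation in each round of beta-oxidation of medium-chain fatty acids in the mitochondrial matrix. HACL1 is a peroxisomal lyase of alpha-oxidation, the route by which phytanic acid, a branched fatty acid made from chlorophyll in the rumen, is shortened before it can enter beta-oxidation. SUCLG2 is the subunit that makes succinyl-CoA ligase specific for GDP, in the citric acid cycle, which burns the acetyl-CoA that beta-oxidation yields. FUNDC2 is a protein of the outer mitochondrial membrane and a relative of the mitophagy receptor FUNDC1. In early dioestrus the endometrium passes under the rule of progesterone, and its glands secrete the nutrients on which the early embryo lives.

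Libraries held between 6920879 and 27357249 counts in genes, and the 4 genes had from 250 (HACL1) to 4469 counts (SUCLG2) in a library. Expression is given in CPM, the count of a gene scaled to a common library size with TMM factors, and is compared between cows for each gene and not between genes, because transcript lengths were not used. On the first principal component 4 libraries stood away from the remaining 19, at 57.1 or more against 10.5 or less. They were replicates 4 and 6 of the non-pregnant cows and 22 and 23 of the pregnant cows, and are called the 4 libraries apart. Pregnant replicate 5 was the highest of the remaining 19 on this component, at 10.5. It also had the lowest TMM factor of all libraries, 0.765 against 0.920 or more in the others. Of the reads of pregnant replicates 20 and 21, 75.5% and 76.7% fell outside genes, while no other library exceeded 59.6%.

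The 4 genes varied little from cow to cow. The SD of log2 CPM over 23 cows was 0.17 for FUNDC2, 0.22 for SUCLG2, 0.23 for ACADM and 0.32 for HACL1, against a median of 0.46 over all genes tested. FUNDC2 lay at percentile 2.78 of this spread, SUCLG2 at 9.10, ACADM at 10.3 and HACL1 at 27.9. Without the 4 libraries apart the percentiles were 3.06, 14.2, 17.8 and 25.2 in the same order, and the median SD was 0.39. All 4 genes were in the upper part of the range of expression, where counting error is small. Counting error alone gives a coefficient of variation of 2.01% for SUCLG2 to 4.17% for HACL1, and the observed coefficients were 11.6% for FUNDC2, 15.6% for ACADM, 16.0% for SUCLG2 and 23.9% for HACL1. Most of the spread thus lay above counting error. The highest cow was 1.61 times the lowest for FUNDC2, 1.84 times for SUCLG2, 1.90 times for ACADM and 2.91 times for HACL1.

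The lowest ACADM levels came from pregnant cows in their first lactation. In pregnant cows ACADM had its lowest value at 36.0 CPM, its median at 49.0 and its highest value at 59.4, and in non-pregnant cows at 44.0, 50.03 and 68.1 CPM. The groups overlapped, but pregnant replicates 7, 8, 5 and 23, all of parity 1, lay below every non-pregnant cow at 36.0, 37.7, 39.9 and 41.2 CPM, and non-pregnant replicate 19 lay above every pregnant cow. The mean of the pregnant group was 47.9 ± 8.10 CPM (SD, n = 12) and that of the non-pregnant group 51.8 ± 7.26 CPM (SD, n = 11). The fitted log2 fold change, pregnant over non-pregnant, was -0.11 (standard error 0.097). It was -0.068 without non-pregnant replicate 19 and -0.22 without the 6 libraries named above. Leaving out the 6 keeps 8 pregnant and 9 non-pregnant cows, the numbers of Holstein cows used in choosing the list. Whether they are the same cows was not tested. With edgeR 0% of all genes tested passed an adjusted p of 0.05 between the groups, while 1556 genes (10.5%) had an unadjusted p under 0.05 and DESeq2's Wald test called 8 (0.0539%).

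ACADM also had the steepest relation to parity of the 4 genes, although it did not pass the test over all genes. Its mean was 46.7 ± 7.02 CPM (SD, n = 12) in parity 1, 52.7 ± 9.34 CPM (SD, n = 5) in parity 2 and 53.6 ± 6.32 CPM (SD, n = 6) in parity 3. In parity 2 the non-pregnant cows had 54.2, 47.4 and 68.1 CPM and the pregnant cows 49.2 and 44.5 CPM. In parity 3 the non-pregnant cows had 59.0, 50.03 and 45.3 CPM and the pregnant cows 59.4, 48.8 and 59.2 CPM. All of these cows had 44.5 CPM or more, whereas the parity 1 cows ran from 36.0 to 57.0 CPM, so the parities overlapped widely. With pregnancy status and days from calving in the model, the slope was 0.13 on the log2 scale per parity (standard error 0.054, unadjusted p = 0.0248, edgeR adjusted p = 0.704). For parity no gene passed an adjusted p of 0.05 with edgeR (0%) and 1 with DESeq2 (0.00673%), while 1007 genes (6.78%) had an unadjusted p under 0.05. ACADM was the only one of the 4 genes among these 1007. Without pregnant replicates 20 and 21 the slope was 0.13, and over the alternatives that keep parity number it ran from 0.10 to 0.16. Parities 2 and 3 together were 0.25 above parity 1 on the log2 scale (edgeR adjusted p = 0.730). The adjusted p ran from 0.452 to 0.9998 over all of these.

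Across the 19 libraries that did not lie apart, ACADM had negative correlations with library size that did not pass. Its log2 CPM had Pearson's r = -0.415 with the log2 of counts in genes (permutation p = 0.0776, adjusted p = 0.364 over 8 relations) and Spearman's rho = -0.419 (permutation p = 0.0766, adjusted p = 0.307). Without pregnant replicates 20 and 21, the smallest libraries, r was -0.328. With the mean of each pregnancy group removed, r was -0.627 (permutation p = 0.00344, adjusted p = 0.0275), the only relation of the 4 genes to a library measure that passed under any alternative. By the same step r between ACADM and the share of reads outside genes went from 0.322 (permutation p = 0.178, adjusted p = 0.475) to 0.511 (permutation p = 0.0249, adjusted p = 0.0995). The median library held 20507100 counts in non-pregnant and 17577897.5 in pregnant cows, and the part of library size in the ACADM values was not tested.

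HACL1 was the most variable of the 4 genes, and its log2 fold change between pregnancy groups depended on several cows. In pregnant cows its lowest, median and highest values were 22.2, 33.3 and 64.6 CPM, and in non-pregnant cows 27.6, 38.7 and 49.4 CPM. The highest value came from pregnant replicate 22, 1 of the 4 libraries apart, and the next highest pregnant cow, replicate 11, had 40.8 CPM. Of the 12 pregnant cows 10 lay below the non-pregnant median, and replicates 17 and 7 (22.2 and 25.9 CPM) lay below every non-pregnant cow. Means were 35.0 ± 10.5 CPM (SD, n = 12) against 37.5 ± 6.35 CPM (SD, n = 11), and the log2 fold change was -0.10 (standard error 0.14). Single cows moved it either way. It was -0.21 without pregnant replicate 22 and -0.15 without non-pregnant replicate 6, but -0.061 without pregnant replicate 7, -0.059 without non-pregnant replicate 1 and -0.055 without pregnant replicate 17. Without the 4 libraries apart it was -0.28 (standard error 0.11), where the SD of log2 CPM over the remaining 19 cows was 0.27.

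HACL1 had no clear relation to parity or to the interval from calving. Its means were 36.4 ± 10.4, 37.4 ± 8.65 and 34.8 ± 4.99 CPM (SD, n = 12, 5 and 6) in parities 1, 2 and 3. The slope per parity was -0.033 (standard error 0.088, edgeR adjusted p = 0.946), with a 95% interval from -0.21 to 0.14, and it was 0.026 without pregnant replicate 22. Per 100 days from calving the slope was 0.022 (standard error 0.18, adjusted p = 0.9996), and its sign turned in 8 of the 23 fits that left out a cow. In parity 3 the non-pregnant cows had 41.3, 32.5 and 29.5 CPM and the pregnant cows 40.8, 31.6 and 33.3 CPM, which is the narrowest range of the 3 parities.

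Of the 4 genes, SUCLG2 had the log2 fold change between pregnancy groups farthest from 0 over all 23 cows. This is a description of genes chosen on this contrast, and its standard errors take no account of that choice. Without the 4 libraries apart it was -0.26 (standard error 0.10), beside -0.28 (standard error 0.11) for HACL1. Its lowest, median and highest values were 117, 143 and 180 CPM in pregnant cows and 134, 156 and 214 CPM in non-pregnant cows. Non-pregnant replicates 19, 2 and 6 (214, 211 and 188 CPM) lay above every pregnant cow, and pregnant replicates 5, 21 and 7 (117, 127 and 128 CPM) below every non-pregnant cow, while the rest overlapped. The log2 fold change was -0.20 (standard error 0.090), and it stayed between -0.26 and -0.16 in all alternatives and with each cow left out. The highest pregnant cow was again replicate 22, a library that lay apart, and non-pregnant replicate 6 is another.

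Of the library measures, SUCLG2 had its larger correlation with the share of reads outside genes, which did not pass after adjustment. In the 19 libraries that did not lie apart, r was -0.399 (permutation p = 0.0911, adjusted p = 0.364 over 8 relations) and rho was -0.486 (permutation p = 0.0378, adjusted p = 0.303), and r was -0.553 without pregnant replicates 20 and 21. The median share was 52.6% in pregnant and 46.8% in non-pregnant cows. With the mean of each pregnancy group removed, r was -0.251 (permutation p = 0.303, adjusted p = 0.627). The part of this share in the SUCLG2 difference was not tested, and without replicates 20 and 21, which had the largest shares, the log2 fold change was -0.20.

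SUCLG2 was at 155 ± 24.8 CPM (SD, n = 12) in parity 1, 166 ± 34.1 CPM (SD, n = 5) in parity 2 and 144 ± 12.5 CPM (SD, n = 6) in parity 3. By its SD the spread was widest in parity 2, while by its range it was widest in parity 1 (117 to 211 CPM). In parity 2 non-pregnant cows had 134, 188 and 214 CPM and pregnant cows 158 and 139 CPM. Parity 3 cows lay close together, the non-pregnant cows at 158, 153 and 140 CPM and the pregnant cows at 155, 134 and 127 CPM. The slope per parity was -0.024 (standard error 0.056, edgeR adjusted p = 0.937), with a 95% interval from -0.13 to 0.085. Per 100 days from calving it was -0.16 (standard error 0.11, unadjusted p = 0.158, adjusted p = 0.9996).

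FUNDC2 was the steadiest of the 4 genes, and its lowest values came from pregnant cows. In pregnant cows its lowest, median and highest values were 35.6, 45.7 and 56.0 CPM, and in non-pregnant cows 44.5, 50.3 and 57.3 CPM. Pregnant replicates 23, 5, 11 and 15 (35.6, 39.4, 41.2 and 42.7 CPM) lay below every non-pregnant cow, and non-pregnant replicates 14 and 12 (57.3 and 56.6 CPM) above every pregnant cow. Means were 46.5 ± 6.12 CPM (SD, n = 12) against 50.7 ± 4.22 CPM (SD, n = 11), a log2 fold change of -0.13 (standard error 0.076), which ran from -0.17 to -0.11 over all alternatives and with each cow left out. The lowest cow, replicate 23, was a library that lay apart, and without the 4 such libraries the value was -0.12.

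FUNDC2 had means of 46.8 ± 5.55, 48.7 ± 3.63 and 51.7 ± 6.40 CPM (SD, n = 12, 5 and 6) in parities 1, 2 and 3. In parity 3 the non-pregnant cows had 47.2, 56.6 and 57.3 CPM and the pregnant cows 41.2, 56.0 and 52.0 CPM, so that 4 of these 6 lay above the mean of their parity. The slope was 0.079 per parity (standard error 0.044, unadjusted p = 0.0865, edgeR adjusted p = 0.704) and -0.12 per 100 days from calving (standard error 0.084, unadjusted p = 0.183, adjusted p = 0.9996). Neither passed, and the 95% intervals ran from -0.0072 to 0.17 and from -0.28 to 0.049. No relation of FUNDC2 to a library measure passed. Its r was -0.0755 with the share of reads outside genes (permutation p = 0.764, adjusted p = 0.977) and 0.00740 with library size (permutation p = 0.977, adjusted p = 0.977).

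All 4 log2 fold changes between pregnant and non-pregnant cows thus lay below 0, beside a median of 0.034 over all genes tested. The genes were taken from a list chosen on this contrast, and nothing is read from the sign they share here.

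**Figure D1:**
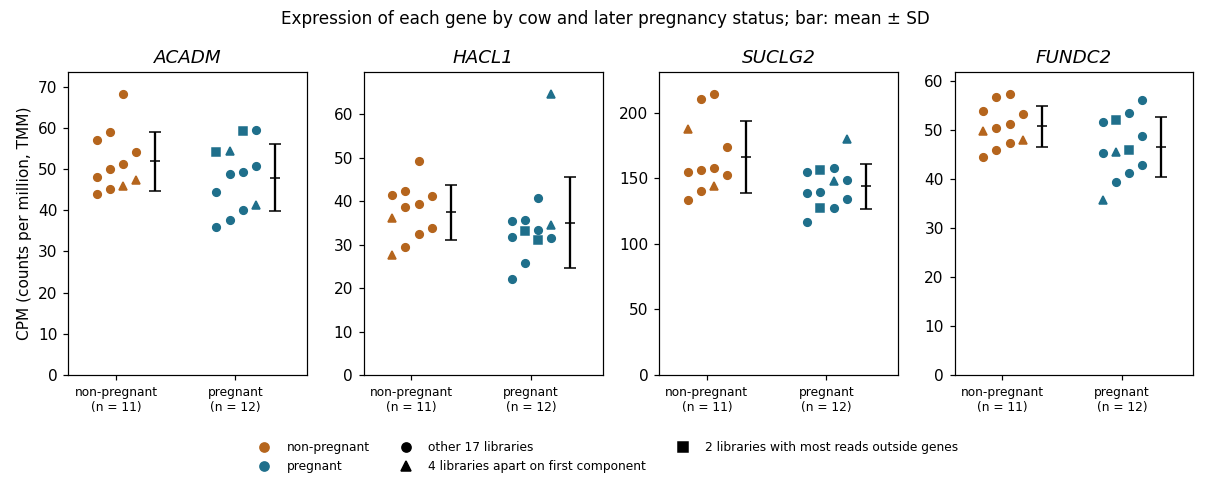
CPM (y axis) of ACADM, HACL1, SUCLG2 and FUNDC2 in each of 11 non-pregnant and 12 pregnant cows (x axis), with the group mean ± SD as bars and separate symbols for the 4 libraries apart on the first component and the 2 with most reads outside genes. The groups overlap for every gene, and pregnant replicate 22 stands alone at 64.6 CPM of HACL1.

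The interval from calving was not related to any of the 4 genes at the level of the test, nor to any other gene. For days from calving 0% of the genes passed an adjusted p of 0.05 with edgeR, DESeq2 called 0 as well, and 613 genes (4.13%) had an unadjusted p under 0.05 with edgeR, none of the 4 among them. ACADM came closest with a slope of -0.20 per 100 days (standard error 0.11, unadjusted p = 0.0698, adjusted p = 0.9996), and the slopes of SUCLG2 and FUNDC2 lay below 0 too. In the 11 cows under the median interval of 174 days ACADM was at 49.3 ± 6.47 CPM (SD) and in the 12 cows at or above it at 50.3 ± 9.11 CPM (SD), so these means do not show the fall that the slope gives. Without parity in the model the slope was -0.13 (unadjusted p = 0.249).

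**Figure D2:**
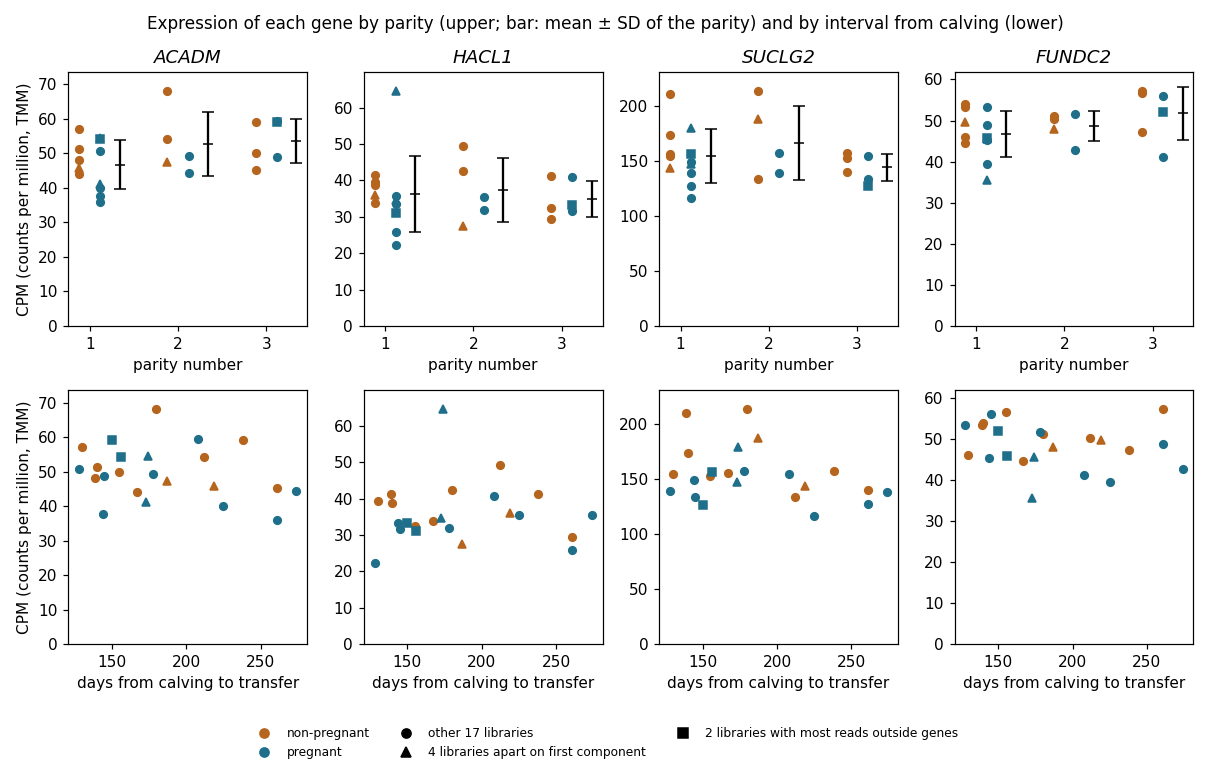
CPM (y axis) of the 4 genes in 23 cows against parity number (upper row, bars for the mean ± SD of each parity, n = 12, 5 and 6) and against days from calving to transfer (lower row). Mean ACADM was 46.7 CPM in parity 1 and 53.6 CPM in parity 3, and no gene passed the test for either variable.

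The difference between pregnancy groups was set against parity, to ask whether it depends on the first lactation. In parity 1 the pregnant cows had 44.9 ± 7.98 CPM of ACADM (SD, n = 7) and the non-pregnant cows 49.3 ± 5.11 CPM (SD, n = 5). In parities 2 and 3 the means were 52.2 ± 6.73 CPM (SD, n = 5) and 54.0 ± 8.50 CPM (SD, n = 6). SUCLG2 was at 145 ± 20.4 against 168 ± 26.2 CPM in parity 1 and at 143 ± 13.2 against 164 ± 30.8 CPM in parities 2 and 3, in the same order. The change of the group difference from parity 1 to parities 2 and 3 (the interaction term) was 0.086 (standard error 0.19) for ACADM, -0.00052 (standard error 0.29) for HACL1, 0.0024 (standard error 0.19) for SUCLG2 and 0.053 (standard error 0.16) for FUNDC2. None passed (edgeR adjusted p = 0.988 or more), nor did any other gene (0% with edgeR, 0 genes with DESeq2), and 443 genes (2.98%) had an unadjusted p under 0.05. The 95% intervals are wide, from -0.29 to 0.46 for ACADM and from -0.56 to 0.56 for HACL1. They ran from -0.37 to 0.38 for SUCLG2 and from -0.25 to 0.36 for FUNDC2. These cows therefore do not settle whether the difference depends on parity within these bounds. Without the 4 libraries apart and pregnant replicates 20 and 21 the term was 0.26 for SUCLG2 and 0.24 for HACL1 (edgeR adjusted p = 0.972 for both).

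**Figure D3:**
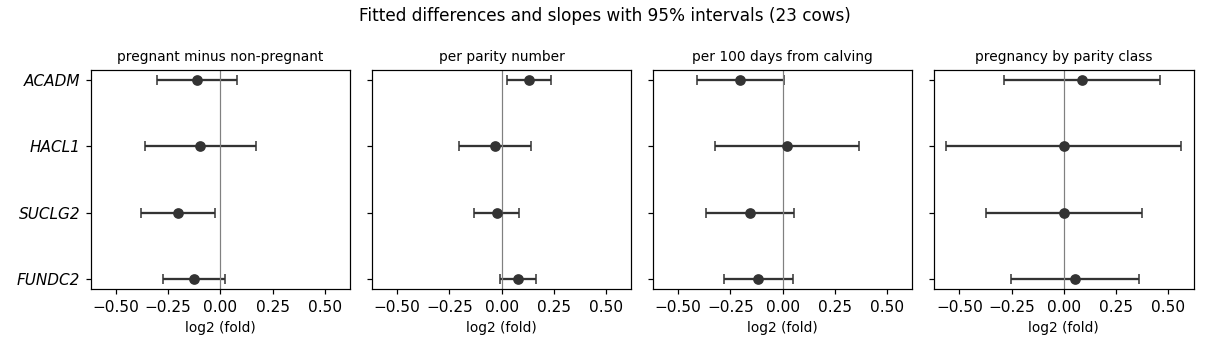
Fitted values on the log2 scale (x axis) for the 4 genes (y axis) with 95% intervals, in panels for pregnant minus non-pregnant cows, the slope per parity number, the slope per 100 days from calving and the interaction of pregnancy with parity class, over 23 cows. All 4 differences between pregnancy groups lie below 0, from -0.20 for SUCLG2 to -0.10 for HACL1, as a description of genes chosen on this contrast. The intervals of that panel take no account of the choice and are not a test.

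With pregnancy status and parity combined into 6 groups, the order of the group means differed between the genes. ACADM, HACL1 and SUCLG2 were highest in non-pregnant cows of parity 2, at 56.6 ± 10.6, 39.8 ± 11.1 and 179 ± 41.0 CPM (SD, n = 3), and FUNDC2 in non-pregnant cows of parity 3, at 53.7 ± 5.61 CPM (SD, n = 3). The lowest means were in pregnant cows of parity 1 for ACADM (44.9 CPM) and FUNDC2 (44.9 CPM), of parity 2 for HACL1 (33.7 CPM) and of parity 3 for SUCLG2 (139 CPM). In all 20 pairs of neighbouring groups the step from a mean to the next was smaller than the larger SD of the pair. Steps between neighbours in a sorted order are small by construction, so this does not show whether the groups differ.

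The 3 enzyme genes ACADM, HACL1 and SUCLG2 were positively correlated over cows, below the level of the test, and FUNDC2 had smaller or negative correlations with them. In the 19 libraries that did not lie apart, Pearson's r was 0.467 between ACADM and HACL1 (permutation p = 0.0444, adjusted p = 0.152 over 6 pairs), 0.452 between ACADM and SUCLG2 (permutation p = 0.0505, adjusted p = 0.152) and 0.410 between HACL1 and SUCLG2 (permutation p = 0.0822, adjusted p = 0.164). Spearman's rho was 0.414, 0.374 and 0.381 (permutation p = 0.0793, 0.115 and 0.109, adjusted p = 0.230 each). None passed after adjustment. Non-pregnant replicate 19 and pregnant replicate 7 were the farthest from the median of ACADM. Without both of them, r was 0.266 between ACADM and HACL1 and 0.158 between ACADM and SUCLG2. With 1 cow left out at a time, r between ACADM and HACL1 stayed between 0.352 and 0.591. Leaving out non-pregnant replicate 19 alone gave 0.269 between ACADM and SUCLG2. Without non-pregnant replicate 1 and pregnant replicate 17, the farthest for HACL1, r between HACL1 and SUCLG2 was 0.620.

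The correlations of FUNDC2 were 0.173 with ACADM (permutation p = 0.479, adjusted p = 0.479), 0.225 with SUCLG2 (permutation p = 0.357, adjusted p = 0.428) and -0.235 with HACL1 (permutation p = 0.334, adjusted p = 0.428). The rho values were 0.104, 0.109 and -0.314 (permutation p = 0.673, 0.658 and 0.189, adjusted p = 0.673, 0.673 and 0.284). Without the 2 cows farthest from the median of ACADM, of SUCLG2 and of HACL1, r was 0.168, 0.109 and -0.227. These are not the cows farthest for FUNDC2. Single cows decided the first 2 of these r values: r with ACADM was 0.0239 without pregnant replicate 5 and 0.307 without pregnant replicate 11, and r with SUCLG2 was 0.0405 without pregnant replicate 5. With the mean of each pregnancy group removed, r between HACL1 and FUNDC2 was -0.514 (permutation p = 0.0249, adjusted p = 0.149). The same step lowered r to 0.368 between ACADM and HACL1, to 0.347 between ACADM and SUCLG2 and to 0.185 between HACL1 and SUCLG2, and none of these passed.

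By rank, non-pregnant replicate 19 was ranked 1 of 23 cows (1 being the highest) for ACADM and for SUCLG2 and 3 for HACL1. Pregnant replicate 7 ranked 23 for ACADM, 22 for HACL1 and 21 for SUCLG2. Of all cows 6 lay above the median of ACADM, HACL1 and SUCLG2 together (4 non-pregnant and 2 pregnant). At or below it for all 3 genes lay 5 cows (1 non-pregnant and 4 pregnant). The genes were chosen on pregnancy status, and other sets of 3 genes were not counted, so nothing is read from these counts. Pregnant replicate 5 was below every non-pregnant cow for ACADM, SUCLG2 and FUNDC2, but ranked 10 for HACL1.

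**Figure D4:**
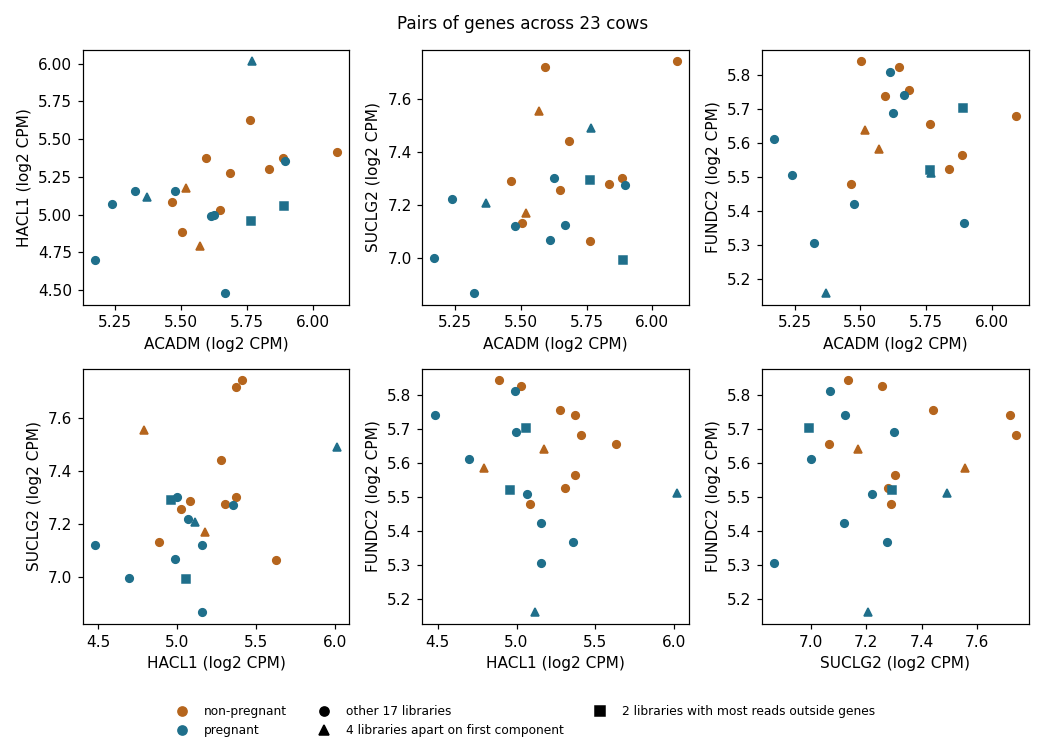
Log2 CPM of each pair of the 4 genes (x and y axes) in 23 cows, with colours for pregnancy status and symbols for the 4 libraries apart on the first component and the 2 with most reads outside genes. Over the 19 libraries not apart r was 0.467 for ACADM and HACL1 and -0.235 for HACL1 and FUNDC2.

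Many genes followed each of the 4 more closely than they followed each other. Over the same 19 libraries and 14304 other genes with a mean of at least 1 CPM, ENSBTAG00000002833 was nearest to ACADM (rho = 0.861), ENSBTAG00000018802 to HACL1 (0.812), ENSBTAG00000006441 to SUCLG2 (0.926) and ENSBTAG00000002223 to FUNDC2 (0.786), as a description of points that share libraries and scaling. Over all 23 cows these were 0.816, 0.607, 0.590 and 0.700. HACL1 stood at percentile 89.3 among the genes ordered by rho with ACADM, and SUCLG2 at percentile 86.9. FUNDC2 stood at percentile 63.0 of that order and at 17.9 of the order for HACL1. The share of genes with rho above 0.5 was 7.84% for SUCLG2, 6.34% for ACADM, 5.84% for HACL1 and 1.29% for FUNDC2.

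The files give no symbols for these neighbours. Among the genes named in the biomarker list, chosen here after their values were seen, SLC35A3, a transporter of a nucleotide sugar into the Golgi, was nearest to ACADM (rho = 0.798, and 0.671 over 23 cows). STAG2, a cohesin subunit, came next (0.758, and 0.523 over 23 cows). NEIL2, a DNA glycosylase of base excision repair, was nearest to HACL1 (0.756, and 0.752 over 23 cows), and over all 23 cows no other gene had a higher rho with HACL1. VPS26B, a retromer subunit, was nearest to SUCLG2 (0.716, and 0.535 over 23 cows), and WDR20 to FUNDC2 (0.470, and 0.372 over 23 cows). These genes were picked by the study on the same contrast as the 4, so their likeness is not independent of it.

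The ratio of 2 genes within a cow is nearly free of library scaling. The log2 ratio of ACADM to HACL1 averaged 0.48 ± 0.38 in the 12 pregnant and 0.48 ± 0.20 in the 11 non-pregnant cows (SD), and it ran from -0.25 in pregnant replicate 22 to 1.19 in pregnant replicate 17. The ratio of SUCLG2 to FUNDC2 was 1.63 ± 0.27 (SD, n = 12) against 1.70 ± 0.26 (SD, n = 11), and that of HACL1 to FUNDC2 was -0.44 ± 0.48 against -0.45 ± 0.29. For all 6 pairs of genes the distance between the group means was smaller than the SD of either group. The distances were not tested, and an SD between cows does not show whether the means differ.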

How the data were processed

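Endometrial biopsies of 23 Holstein cows gave 1 library each. Per the labels, RNA was prepared with the Illumina TruSeq stranded total RNA protocol, and the submitters' processing notes name STAR, HTSeq and the build UMD3.1. Which versions, annotation release and strand option were used is not given in the sources used here, so reads of overlapping antisense genes may be included. The values deposited by the authors are raw counts per gene, without normalization, and the closing rows of reads outside genes or ambiguous were kept out of library sizes (outside genes 39.2 to 76.7%). Cows were grouped by their labelled pregnancy status and carry the number in their sample title, which pairs no cows. Most count files are numbered differently from the titles, and each was tied to its cow by GEO's record of the sample's file, on which every value by cow rests. Within groups no 2 libraries were near-identical (121 pairs, with a chi-square of at least 30.5 per degree of freedom).

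Counts were filtered by edgeR's default, normalized by TMM and tested with edgeR 4.0.16 (quasi-likelihood, R 4.3.3), with Benjamini-Hochberg adjustment over all 14852 genes. Models held pregnancy status alone, status with parity number and days (per 100 days), or status by parity class. DESeq2 1.42.0 gave an alternative test and the variance stabilizing transformation behind the first component. Standard errors came from the log2 value and its F statistic, and intervals are normal 95% intervals. Correlations used log2 CPM (prior count 2) and two-sided permutation tests with 1e+05 resamples. The calculations were tested on simulated data. The named genes are the 4, the nearest gene to each of them by rho, and, added later, named genes of the biomarker list. The symbols of the 4 come from that list. The members, the lists and the left-out libraries were chosen with earlier results of these data known. The pathway and cell type lists (mitochondrial and peroxisomal fatty acid oxidation, citric acid cycle, outer membrane and mitophagy, respiratory chain, regulators, epithelium, stroma, endothelium, smooth muscle, immune cells, hormone response) were matched by 0 identifiers and could not be tested.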

Additional observations from a re-analysis of the deposited data

Results flagged for a closer look

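HACL1 in pregnant replicate 22 was 64.6 CPM, and the next highest of the 7 pregnant cows of parity 1 had 35.6 CPM. The gap took 0.684 of the range of that group, more than Dixon's test allows for 7 cows. In all, 16 groups of 5 to 7 cows were looked at (4 genes by pregnancy status and parity class), and chance alone marks about 1 in 20. The library lay apart on the first principal component, with 59.2% of its reads outside genes.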

How the results depend on the processing

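No paired analysis was possible because the cows carry separate numbers in the 2 groups. The slopes of ACADM and FUNDC2 for parity kept their direction in every alternative and with each cow left out. So did the slopes of ACADM, SUCLG2 and FUNDC2 for days. No test of the 4 genes for parity, days or the interaction passed in any of these fits. The differences of the 4 genes between pregnancy groups kept their direction too. The genes were chosen on this contrast in part of these cows, and the fits share most cows, so this is no support for a difference. DESeq2's Wald test called 8 genes for pregnancy status and 1 for parity where edgeR called 0, and the cause was not tested. Values near 0 changed sign. The parity slope of SUCLG2 was 0.026 by parity class, 0.0061 without pregnant replicates 20 and 21 and 0.013 without the 6 libraries. That of HACL1 was 0.034 without the 4 libraries apart and 0.035 without the 6, and its slope for days was -0.012 without replicates 20 and 21. The interaction of SUCLG2 was -0.012 without a filter on low counts and -0.00058 with a stricter one. Without the 4 libraries apart and without the 6, the interaction was 0.21 and 0.24 for HACL1 and -0.022 and -0.052 for FUNDC2, and 0.18 and 0.26 for SUCLG2, from 0.0024 over all cows. The correlation of HACL1 with the share outside genes was 0.0374 over all 23 cows, 0.0418 without replicates 20 and 21 and 0.116 with group means removed, and with library size -0.179 and -0.244 in the last 2 of these. With group means removed, FUNDC2 had 0.0638 with the share and -0.149 with library size, and ACADM had -0.627 with library size, which then passed.

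With each cow left out in turn, genes called for pregnancy status numbered 0 to 1 (1 without pregnant replicate 8). The parity slope ran from -0.072 to 0.026 for HACL1 and from -0.045 to 0.0023 for SUCLG2, and the slope of HACL1 for days from -0.066 to 0.14. The interaction ran from -0.090 to 0.21 for HACL1, from -0.099 to 0.092 for SUCLG2 and from -0.00047 to 0.11 for FUNDC2. The correlation of FUNDC2 with the share outside genes ran from -0.197 to 0.0136, and those of HACL1 and FUNDC2 with library size from -0.0906 to 0.133 and from -0.0707 to 0.125. Counting error made up at most 9.45% of the variance of these genes between cows.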
